A study of Homo sapiens with 2 samples.

Results

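The strong stable cis contacts are pairs of restriction fragments on the same chromosome that were listed, with a score of 15 or more, in both the ponatinib and the DMSO promoter-capture Hi-C library of K562 cells. Chromosomes 9, 13 and 22 were left out. There were 1566 such pairs among 32360 cis pairs outside these chromosomes that stood in both lists, or 4.84% (95% interval 4.61 to 5.08). In all, 37194 pairs were in both lists, of 91305 pairs in the ponatinib list and 84049 pairs in the DMSO list. The members were chosen by their scores in both lists, so the scores given for them are a description and support nothing.

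K562 is an established human chronic myelogenous leukaemia line whose growth depends on the BCR-ABL1 kinase. The cells received either 100 nM ponatinib, an inhibitor of that kinase, for 24 h, or the vehicle DMSO for the same time, with 1 library per treatment. Promoter-capture Hi-C joins DNA ends that lie near each other in fixed nuclei and pulls out the joined fragments that carry gene promoters. With no replicate, no difference between the treatments could be tested, and intervals below cover counting error only.

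Promoters meet enhancers, other promoters and insulator sites through loops of the chromatin fibre. CTCF and cohesin hold many loops at their bases, and active genes can gather where their promoters come together. In erythroid and myeloid cells such contacts are known to link the MYC promoter with enhancers far downstream, and replication-dependent histone genes with each other in nuclear bodies that process histone RNA. A fragment that at least 1 line of either list gives as its bait is called a bait here. A pair with baits at both ends is called promoter to promoter, and any other pair promoter to distal. A captured fragment that the lists give only as a partner thus counts as distal. How far this shifts the promoter-to-promoter shares was not tested. The lists hold contacts and no expression levels, so the labelled cell type could not be checked against expressed markers.

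The promoters below belong to both ends of the strongest member pair (DHX57 and ARHGEF33), to both ends of the next promoter-to-promoter pair by its lower score (MTERF1 and GATAD1), and to the histone gene group on chromosome 6 (H2BC15, H2AC17, H2BC12 and H4C12), the largest group in which every fragment was a bait. Each runs 5′ to 3′ on the gene's strand over 250 bases before and 50 bases after the start, from RefSeq on GRCh38.p14. Capitals mark CCAAT (called a CCAAT box here) and TATAAA (called a TATA box here), by their letters alone and on either strand. ATTGG and TTTATA are thus the same motifs on the other strand. The match in ARHGEF33 lies on the other strand and after the gene start. Whether any match is a working box was not tested. In the H2BC12 promoter the TATA boxes of both strands overlap near the 5′ end.
DHX57: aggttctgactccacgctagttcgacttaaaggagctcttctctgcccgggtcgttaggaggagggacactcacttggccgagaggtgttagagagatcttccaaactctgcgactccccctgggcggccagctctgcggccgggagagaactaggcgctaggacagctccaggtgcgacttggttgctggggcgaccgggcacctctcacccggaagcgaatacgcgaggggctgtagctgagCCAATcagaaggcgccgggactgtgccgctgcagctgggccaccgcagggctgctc
ARHGEF33: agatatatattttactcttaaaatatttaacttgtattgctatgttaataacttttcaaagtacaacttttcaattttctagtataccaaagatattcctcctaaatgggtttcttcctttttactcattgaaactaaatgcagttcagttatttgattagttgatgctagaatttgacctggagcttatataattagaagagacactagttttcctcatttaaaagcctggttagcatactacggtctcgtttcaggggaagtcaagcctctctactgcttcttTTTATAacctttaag
MTERF1: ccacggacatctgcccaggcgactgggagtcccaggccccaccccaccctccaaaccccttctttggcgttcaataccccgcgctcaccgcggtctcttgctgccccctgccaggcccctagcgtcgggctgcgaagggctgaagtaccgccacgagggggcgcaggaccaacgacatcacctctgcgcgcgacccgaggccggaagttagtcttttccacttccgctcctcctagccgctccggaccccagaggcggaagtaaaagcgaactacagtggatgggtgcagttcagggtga
GATAD1: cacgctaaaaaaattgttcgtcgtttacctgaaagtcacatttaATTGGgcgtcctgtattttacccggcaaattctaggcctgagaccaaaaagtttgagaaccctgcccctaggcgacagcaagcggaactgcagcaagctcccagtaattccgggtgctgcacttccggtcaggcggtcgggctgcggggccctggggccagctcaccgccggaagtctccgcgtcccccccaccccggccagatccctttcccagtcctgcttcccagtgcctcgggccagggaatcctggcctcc
H2BC15: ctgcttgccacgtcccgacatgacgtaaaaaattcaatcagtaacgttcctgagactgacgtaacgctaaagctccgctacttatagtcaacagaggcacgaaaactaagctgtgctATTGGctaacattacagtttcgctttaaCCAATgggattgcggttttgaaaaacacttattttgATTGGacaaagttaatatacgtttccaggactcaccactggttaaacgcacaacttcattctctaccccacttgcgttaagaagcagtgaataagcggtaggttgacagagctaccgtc
H2AC17: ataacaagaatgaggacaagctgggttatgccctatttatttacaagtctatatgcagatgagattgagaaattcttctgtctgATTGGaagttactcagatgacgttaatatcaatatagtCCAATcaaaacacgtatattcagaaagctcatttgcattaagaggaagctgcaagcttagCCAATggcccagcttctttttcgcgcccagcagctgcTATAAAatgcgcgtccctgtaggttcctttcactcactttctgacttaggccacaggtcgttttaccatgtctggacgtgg
H2BC12: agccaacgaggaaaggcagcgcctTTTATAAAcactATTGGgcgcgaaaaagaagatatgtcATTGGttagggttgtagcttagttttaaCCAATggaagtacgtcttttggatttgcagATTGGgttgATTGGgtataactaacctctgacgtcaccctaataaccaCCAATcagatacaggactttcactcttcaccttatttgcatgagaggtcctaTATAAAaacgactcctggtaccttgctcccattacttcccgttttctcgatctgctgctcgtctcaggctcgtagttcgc
H4C12: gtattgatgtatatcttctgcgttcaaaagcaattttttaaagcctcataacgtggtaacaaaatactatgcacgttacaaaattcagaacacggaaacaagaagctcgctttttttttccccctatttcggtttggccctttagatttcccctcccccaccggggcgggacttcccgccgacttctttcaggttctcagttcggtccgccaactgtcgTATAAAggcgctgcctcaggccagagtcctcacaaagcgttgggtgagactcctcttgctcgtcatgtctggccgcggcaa
The DHX57 promoter lay at chr2:38875885-38876184 on the minus strand and the ARHGEF33 promoter at chr2:38889625-38889924 on the plus strand. The MTERF1 promoter was at chr7:91880653-91880952 on the minus strand, and that of GATAD1 at chr7:92447232-92447531 on the plus strand. Among the histone genes, H2BC15 was at chr6:27838319-27838618 on the plus strand, H2AC17 at chr6:27893136-27893435, H2BC12 at chr6:27146806-27147105 and H4C12 at chr6:27831511-27831810, the last 3 on the minus strand. The H2BC12 promoter held 6 CCAAT boxes and the promoters of H2BC15 and H2AC17 held 3 each. No CCAAT or TATA box was found in the window of MTERF1.

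Over 1062 promoters on member fragments, 35.97% held a CCAAT box and 8.38% a TATA box. Of 11259 promoters on the other listed baits, 34.1% held a CCAAT box and 7.88% a TATA box, and these shares were 34.96% and 9.64% over all 20267 promoters. Without histone genes, 34.3% of the promoters on member fragments held a CCAAT box and 6.69% a TATA box. The GATA motif AGATAA, bound by the erythroid GATA factors, was in 6.21% of the promoters on member fragments and in 6.70% of those on the other listed baits, where all promoters had 7.95%. Histone promoters stood apart from the rest in these letters whether or not their fragment was a member. A CCAAT box was in 28 of 31 histone promoters on member fragments and in 26 of 32 on other listed baits, and a TATA box in 20 and in 22 of them. Their median GC content was 44% on member fragments and 44.8% on the others, against 64.3% over all promoters on member fragments.

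Among the members, the score had a median of 21.6 in the ponatinib list (quartiles 17.9 and 27.3) and of 20.0 in the DMSO list (quartiles 17.3 and 24.6). The other 30794 shared cis pairs had medians of 7.57 in the ponatinib list and 7.33 in the DMSO list. The highest member score was 130 in the ponatinib list and 101 in the DMSO list, both of the same pair. Scores of 30 or more were held by 273 members in the ponatinib list and 185 in the DMSO list. In both lists the scores thinned abruptly near 37: 29 members had a ponatinib score from 36 up to 37 and 5 from 37 up to 38, and 25 and 3 members had a DMSO score in these ranges. Scores of 37 or more were held by 82 members in the ponatinib list and 25 in the DMSO list. What sets this step was not tested, since the sources used here do not define the score.

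**Figure D1:**
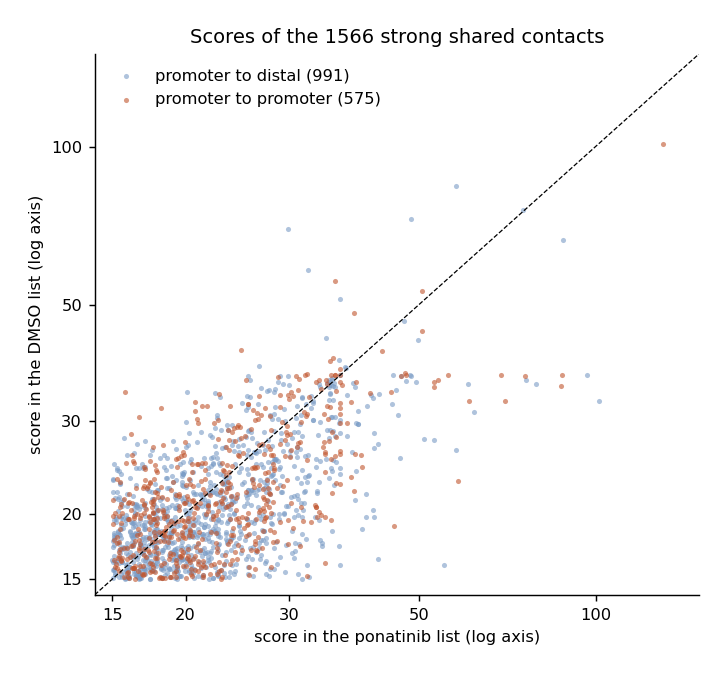
Each point is 1 of the 1566 member pairs, with its score in the ponatinib list on the horizontal axis and its score in the DMSO list on the vertical axis, both on log axes. Promoter-to-promoter pairs (575) are orange, promoter-to-distal pairs (991) blue, and the dashed line marks equal scores. The points start at 15 on both axes, as the rule sets, and few DMSO scores lie above 37.

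The threshold cut through a dense part of the scores. Just inside it were a pair of FGF1, a growth factor gene, with a fragment of NDFIP1 (scores 31.5 in the ponatinib list and 15.01 in the DMSO list) and a pair overlapping ASB4 (15 and 16.3). Just outside it were a pair of MROH9 with KIFAP3 (14.99 in the ponatinib list and 19.9 in the DMSO list), a pair of DTL and INTS7 with PPP2R5A (21.1 and 14.99) and a pair of CFAP68 with DIXDC1 (20.3 and 14.99). In 296 members the lower score was under 16, and in 368 further shared cis pairs it lay from 14 up to 15.

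A score of 15 or more in 1 list was often not matched in the other. The ponatinib list had 3220 cis pairs at that level outside the chromosomes left out. Of these, 48.6% were members, 45.9% were listed with a lower score in the DMSO list and 5.47% were not listed there. The DMSO list had 2448 such pairs, of which 64.0% were members, 33.3% had a lower score in the ponatinib list and 2.78% were not listed there. Strong pairs of either list were thus nearly all listed in the other, with 176 exceptions in the ponatinib list and 68 in the DMSO list.

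Of the 1566 members, 956 (61.0%, 58.6 to 63.5) had the higher score in the ponatinib list, 606 had it in the DMSO list and 4 had equal scores. Over all shared cis pairs the ponatinib score was the higher in 54%. Among the other shared pairs it was the higher in 53.6% (53.1 to 54.2). The share was 57.9% (53.8 to 62.0) in promoter-to-promoter members and 62.9% (59.8 to 65.9) in promoter-to-distal members. Since the rule used these scores and depth is unknown, the shares describe the lists and not the strength of contacts.

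The members lay somewhat farther apart than the other shared pairs and took a larger share of the few pairs beyond 2 Mb. The median distance between fragment midpoints was 207 kb (194 to 219) in members and 180 kb (178 to 183) in the other shared pairs, a difference of 26.3 kb (13.2 to 38.4). The middle part of the members, between the quartiles, spanned 121 to 339 kb, and that of the others 92.3 to 321 kb. Pairs 1 Mb or more apart made up 88 members (5.62%) and 698 of the others (2.27%), a difference of 3.35 percentage points (2.30 to 4.62). By distance, members took 2.03% of the shared pairs under 20 kb, 5.35% from 100 to 200 kb, 5.05% from 200 to 500 kb and 21.1% (52 of 247) at 2 Mb or more. Pairs of a set share fragments and are not independent, so these intervals are narrower than the true error. With only the pair of highest lower score taken from each connected group of fragments, the members' median was 194 kb (177 to 218). This interval took in the 180 kb of the other pairs, which were not thinned. The members' share beyond 1 Mb was then 3.68% (2.32 to 5.52).

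Promoter-to-promoter pairs were more frequent in members. Baits stood at both ends of 575 members (36.7%, 34.3 to 39.2), where all shared cis pairs had 25.8%. The other shared pairs had 25.3% (24.8 to 25.8), and the difference was 11.5 percentage points (9.05 to 13.9). Weighted to the members' distances, the other pairs had 24.4%. With only the pair of highest lower score kept from each connected group, the members had 45.7% (41.6 to 49.7). That choice used the scores and the other pairs were not thinned, so this value cannot show the effect of shared fragments on the gap. The gap was widest at short range, with 68.1% of members against 22.8% of the others under 20 kb, and 67.2% against 43.5% from 20 to 50 kb. From 200 to 500 kb it was 32.0% of members against 22.7% of the others. At 1 to 2 Mb (22.2% against 19.7%) and at 2 Mb or more (7.69% against 10.8%) the interval of the difference included 0. The share was higher in members on 17 of 20 chromosomes, with chromosomes 10, 16 and 20 as the exceptions.

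**Figure D2:**
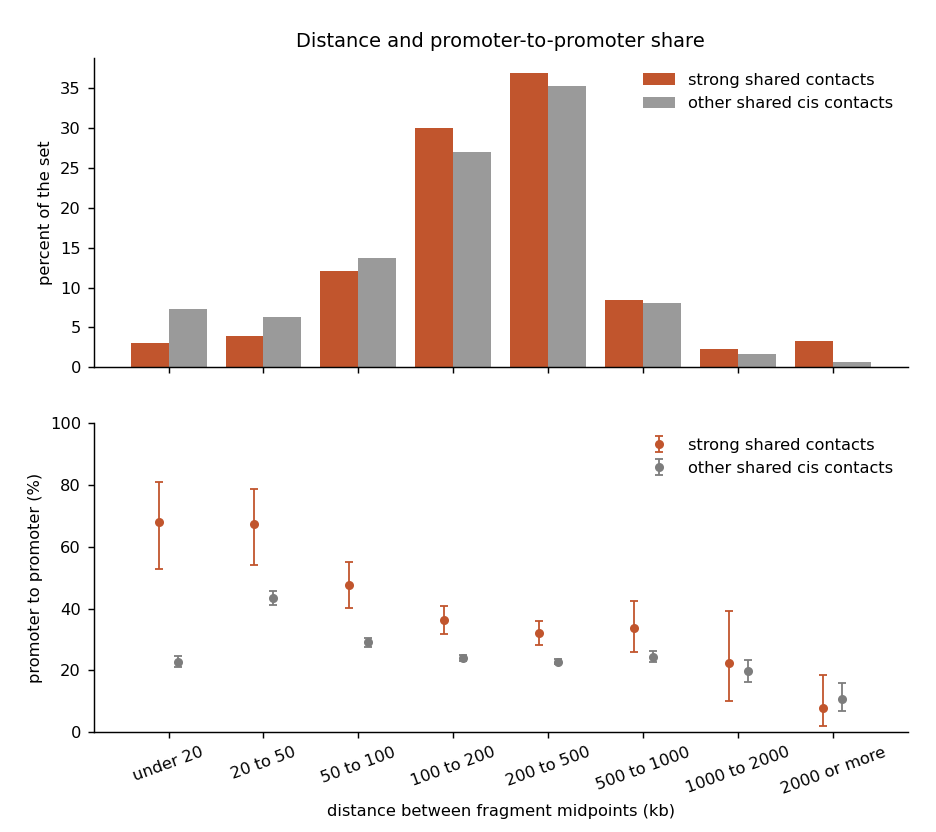
The upper panel gives, for each range of distance between fragment midpoints in kb, the percent of the 1566 member pairs (orange) and of the 30794 other shared cis pairs (grey) that fall in it. The lower panel gives the percent of each that were promoter to promoter, with 95% Clopper-Pearson intervals; members lie above the others up to 2000 kb, with intervals that do not overlap up to 500 kb and overlap from there on.

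The distal partners of members lay somewhat less often in genes. Among promoter-to-distal pairs, the partner overlapped a protein-coding gene in 53.7% of 991 members (50.5 to 56.8) and in 61.2% of 23015 other pairs (60.6 to 61.9). It lay in the body of the bait's own gene in 10.3% of members (8.19 to 12.8) and in 14.9% of the others (14.3 to 15.4). Where the gene's direction could be read, the partner was downstream of the gene start in 49.6% of members (45.2 to 54.0) and in 54.2% of the others (53.3 to 55.2). No other bait lay between the ends in 19.2% of members and in 25.3% of the others. A protein-coding gene start was on at least 1 end of 79.4% of members and 77.7% of the others, and fragments had a median length of 4992 bp in members and 5113 bp in the others.

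By chromosome, members made up from 1.85% of the shared cis pairs on X to 8.45% on chromosome 18. Chromosome 1 held the most, with 313 members or 5.87% of its shared pairs. On chromosome 21 the share was 8.04% (5.92 to 10.6), and on chromosome 19, which is dense in genes, it was 1.95% (1.07 to 3.25). On chromosome 18, 22 of the 44 members belonged to a single group described below, and the median distance of members there was 2975 kb against 243 kb in the other shared pairs.

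**Figure D3:**
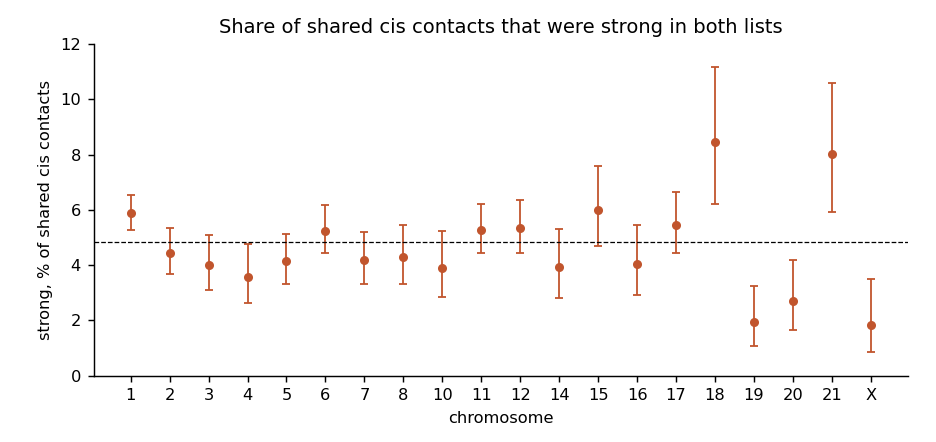
Points give the percent of each chromosome's shared cis pairs that were members, with 95% Clopper-Pearson intervals, and the dashed line is the value over all of these chromosomes, 4.84%. The intervals of chromosomes 1, 18 and 21 lie wholly above the line and those of chromosomes 4, 19, 20 and X wholly below it.

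The strongest member joined neighbouring genes. The fragment with the starts of DHX57, of the DEAH-box helicase family, and MORN2 met that of ARHGEF33 12.1 kb away on chromosome 2, with scores of 130 in the ponatinib list and 101 in the DMSO list. Another pair of short range joined HMGN1, a nucleosome-binding protein gene, with a bait inside BRWD1 36.7 kb away on chromosome 21, with scores of 87.6 in the ponatinib list and 36.7 in the DMSO list. These 2 pairs had their higher score in the ponatinib list, by unequal amounts. The shortest member of all also held HMGN1, at 7.63 kb, with scores of 22.9 in the ponatinib list and 33.7 in the DMSO list. Also among the 5 shortest, SLC26A8 met MAPK14, the p38 alpha kinase gene, at 9.58 kb with 24.5 in the ponatinib list and 29.2 in the DMSO list.

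Several of the 15 highest-ranked members were longer and had scores close to each other. MESD, a chaperone for receptors of the LDL receptor family, met a fragment in the cytokine gene IL16 281 kb away, with scores of 75.1 in the ponatinib list and 75.6 in the DMSO list. MTERF1, a mitochondrial transcription factor, met GATAD1 at 568 kb with 50.5 in the ponatinib list and 53.1 in the DMSO list. PRIM2, the large subunit of DNA primase, met a fragment in the cytoskeletal linker gene DST at 409 kb with 47.1 in the ponatinib list and 46.5 in the DMSO list. GPRC5B, a membrane receptor gene, met a bait inside VPS35L at 289 kb with 50.6 in the ponatinib list and 44.5 in the DMSO list. The ponatinib score was the higher in 2 of these 4 pairs. NIBAN1 met another bait in its own body at 157 kb, with 43.2 in the ponatinib list and 40.9 in the DMSO list.

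In all, 1061 protein-coding genes had a member pair. Of 12444 protein-coding genes with a listed bait outside chromosomes 9, 13 and 22, 8.45% had one. Most of these genes, 694, had 1 member pair, 63 had 5 or more and 6 had 10 or more. The members used 2082 fragments, of which 1186 were baits, and 322 of these baits held no protein-coding gene start.

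TEDDM1 on chromosome 1 had 17 member pairs, more than any other fragment. Its scores ran from 17.98 to 49.8 in the ponatinib list (median 23.4) and from 17.7 to 42.9 in the DMSO list (median 25.6), and 13 of the 17 were higher in the ponatinib list. Of its partners, 8 lay in a run of 17.7 kb with no gap above 10 kb. CHML, a Rab escort protein gene, had 13 member pairs on chromosome 1, all in 1 run of 41.7 kb that ended at the promoter of EXO1, an exonuclease of mismatch repair. The EXO1 pair scored 31.9 in the ponatinib list and 36.7 in the DMSO list, and 5 of the 13 CHML pairs were higher in the ponatinib list. PICALM, a clathrin assembly protein gene on chromosome 11, also had 13, of which 12 fell in a run of 69.9 kb upstream and 10 were higher in the ponatinib list. Most partners of these 3 genes thus lay in stretches of adjoining or nearby fragments.

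ELAPOR2 on chromosome 7 had 11 member pairs in 2 runs, one within its own body and the other, of 6 partners, on the far side of its start up to DMTF1, the gene of a cyclin D-binding transcription factor. Its scores ran from 15.03 to 36.7 in the ponatinib list and from 17.9 to 51.1 in the DMSO list, and 1 of the 11 was higher in the ponatinib list. SLC45A1, a sugar transporter gene on chromosome 1, had 11 as well. Of these, 10 lay in a run of 39.7 kb over and around ERRFI1, an inhibitor of the EGF receptor kinase, and 1 reached PARK7, a gene of the response to oxidative stress. The pair of the SLC45A1 and ERRFI1 promoters had scores of 46.5 in the ponatinib list and 36.6 in the DMSO list, and the PARK7 pair had 16.96 and 24.6. Of the SLC45A1 pairs, 6 were higher in the ponatinib list.

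PIGV, a mannosyltransferase of GPI-anchor synthesis, had 8 member pairs on chromosome 1. One of them, to the promoter of the chromatin remodeller subunit ARID1A at 91.2 kb, had scores of 17.96 in the ponatinib list and 16.8 in the DMSO list. The others lay in a run of 27.4 kb, where the highest pair had 76.2 in the ponatinib list and 35.98 in the DMSO list. RBM4B, an RNA-binding protein gene on chromosome 11, had 9, of which 8 lay in a run of 54.3 kb around NPAS4, an activity-dependent transcription factor gene. One of its pairs had 75.8 in the ponatinib list and 36.6 in the DMSO list, whereas another had 38.8 in the ponatinib list and 48.1 in the DMSO list. PLXNA2, a semaphorin receptor gene on chromosome 1, had 9, with 6 in a run of 33.7 kb at and beyond the far end of its own body. SIK3, a salt-inducible kinase gene, had 8, among them a pair with APOA1, an apolipoprotein gene of liver and gut, at 262 kb with 21.99 in the ponatinib list and 21.7 in the DMSO list.

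The fragment of TMEM179B and TMEM223 on chromosome 11 had 8 member pairs, all promoter to promoter and all higher in the ponatinib list. They lay 13.5 to 127 kb away, with partners that held NXF1, a factor of mRNA export, STX5, a Golgi fusion protein gene, and SLC3A2, the heavy chain of amino acid transporters. Their scores ran from 19.1 to 87.2 in the ponatinib list and from 18.5 to 36.7 in the DMSO list, ranges that overlapped.

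The members fell into 598 connected groups, in which pairs that share a fragment are joined. Single pairs made up 314 groups (20.1% of the members), 84 groups held 5 or more pairs, and 22 held 10 or more with 306 members between them. All 70 fragments with 5 or more member pairs were baits. In 757 members (48.3%), a fragment adjoining 1 end was also a member partner of the same fragment at the other end. Another listed pair with both ends within 10 kb stood beside 98.1% of members and 90.5% of the other shared pairs, where all shared cis pairs had 90.9%. Members had a median of 8 such neighbours and the others 4.

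The largest group held 24 pairs of 22 fragments over 706 kb of chromosome 1 and joined TEDDM1 with GLUL, the glutamine synthetase gene, and with RGSL1 and RGS16, genes of the regulator of G-protein signalling family. TEDDM1 had no member pair with GLUL, RGSL1 or RGS16 themselves. Both TEDDM1 and RGS16 met the same fragment on the far side of RGS16. The RGS16 pair to it scored 31.6 in the ponatinib list and 33.2 in the DMSO list, and the TEDDM1 pair 23.4 in the ponatinib list and 22.7 in the DMSO list. Of the 24 pairs, 17 were higher in the ponatinib list and 1 was promoter to promoter.

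The group of 18 pairs on chromosome 2 joined fragments inside ARMC9 and PSMD1 with fragments of NCL, the gene of nucleolin, a main protein of the nucleolus. Its baits over NCL also overlap small nucleolar RNA genes. The strongest of them had scores of 60.5 in the ponatinib list and 35.2 in the DMSO list at 230 kb, and 16 of the 18 were higher in the ponatinib list. The group of 17 pairs on chromosome 1 held GNAI3, a G protein subunit gene, GSTM4, a glutathione transferase, EPS8L3, AHCYL1 and CSF1, the growth factor of macrophages. GNAI3 had a member pair with EPS8L3, but none with GSTM4, AHCYL1 or CSF1, which belonged to the group through other fragments. The group's scores ran from 15.6 to 31.9 in the ponatinib list and from 15.8 to 26.8 in the DMSO list. Of the 17 pairs, 6 were higher in the ponatinib list. The groups thus did not lean the same way.

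**Figure D4:**
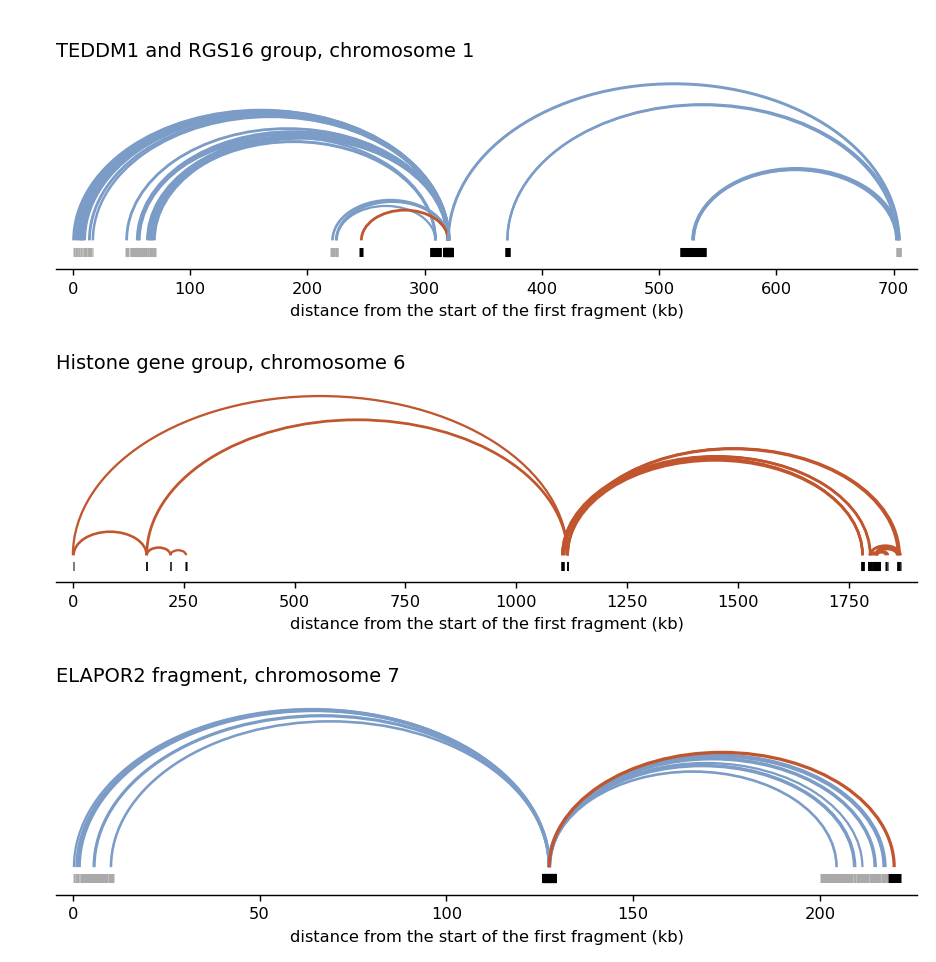
Arcs join the fragment midpoints of each member pair in the TEDDM1 and RGS16 group, the histone gene group and the ELAPOR2 fragment, against the distance in kb from the start of the first fragment. Arcs are orange for promoter-to-promoter and blue for promoter-to-distal pairs, their width grows with the lower of the 2 scores, their height scales with distance, and blocks are baits (black) and other fragments (grey). All 19 pairs of the histone group are orange, and the other panels hold 1 orange arc each.

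Histone genes had member pairs more often than any other list examined. Of 65 histone genes with a listed bait, 31 had a member pair (47.7%, 35.1 to 60.5), against 8.45% of all such genes. Their 29 pairs used 22 histone fragments, all were promoter to promoter, and 16 were higher in the ponatinib list. The largest histone group, on chromosome 6, had 19 pairs of 16 fragments over 1866 kb. The strongest joined the fragment of H2AC15 and H2BC15, genes of core histones H2A and H2B, with that of H2AC17 and H3C12 at 49.1 kb, with scores of 47.4 in the ponatinib list and 37.1 in the DMSO list. H4C12, a histone H4 gene, met the H2AC15 and H2BC15 fragment at 13.6 kb with 34.8 in the ponatinib list and 35.4 in the DMSO list. These short pairs lay within 1 gene cluster.

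Longer histone pairs joined separate clusters. The fragment of H2AC12 and H2BC12 met H2AC17 and H3C12 at 745 kb with 38.8 in the ponatinib list and 22.1 in the DMSO list, and H3C10 at 665 kb with 33.3 in the ponatinib list and 20.6 in the DMSO list. It also met H2AC7 and H3C4 at 949 kb in the other direction, with 20.3 in the ponatinib list and 23.3 in the DMSO list. H4C9 and H4C12 met at 690 kb with 21.4 in the ponatinib list and 32.1 in the DMSO list. Outside chromosome 6, the fragment of H2AX, the histone variant of the DNA damage response, also holds DPAGT1, and it had 5 member pairs. They reached HYOU1 (35.4 in the ponatinib list and 25.4 in the DMSO list), CBL, a ubiquitin ligase of kinase receptors (23.9 and 22.8), another bait inside CBL, MCAM and RNF26, and all 5 were higher in the ponatinib list.

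HOX genes, the transcription factors of body axis and of blood progenitors, had a member pair in 12 of 35 (34.3%, 19.1 to 52.2). Their 18 pairs included HOXC8 with SMUG1, a DNA repair glycosylase, at 177 kb (36.7 in the ponatinib list and 22.8 in the DMSO list) and HOXC6 with SMUG1 at 155 kb (28.3 and 24.2). The fragment of HOXB3 and HOXB5 met a fragment inside the adaptor gene SKAP1 at 327 kb with 25.9 in the ponatinib list and 28.7 in the DMSO list. Of the HOX pairs, 11 of 18 were higher in the ponatinib list.

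Of 18 genes of the STAT5 and JAK pathway, which acts downstream of BCR-ABL1, 6 had a member pair (33.3%, 13.3 to 59.0). MYC, the transcription factor of cell growth, had 8, at 1797 to 1962 kb and in or near CCDC26, with scores from 16.5 to 33.4 in the ponatinib list and from 16.6 to 25.4 in the DMSO list. The ponatinib score was the higher in 7 of the 8. PIM1, a survival kinase gene, had 3 pairs at 105 to 131 kb, and the one with the highest lower score had 26.97 in the ponatinib list and 27.2 in the DMSO list. In contrast to MYC, all 3 had the lower score in the ponatinib list. CISH, a feedback inhibitor of cytokine signalling, shares its fragment with MAPKAPK3 and met MANF at 774 kb with 23.8 in the ponatinib list and 24.0 in the DMSO list. SOCS2, another feedback inhibitor, met a bait inside CRADD at 168 kb with 35.3 in the ponatinib list and 31.9 in the DMSO list. The cyclin D genes CCND1 and CCND3 had 1 pair each, CCND1 with MYEOV at 346 kb (18.4 in the ponatinib list and 18.2 in the DMSO list).

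Among lists of blood lineage genes, only the granulocyte and monocyte interval lay wholly above the 8.45% of all genes with a listed bait. The intervals of the other blood lineage lists included that share. Of 13 erythroid transcription factor genes with a listed bait, KLF3 alone had one, with scores of 15.1 in the ponatinib list and 15.3 in the DMSO list. GATA1 had 5 listed pairs in the ponatinib list and 1 in the DMSO list, TAL1 had 11 and 7, and MYB had 14 and 21, with no member among them. The ferritin gene FTL had 1, with NUCB1 and TULP2 at 71.8 kb, with scores of 22.5 in the ponatinib list and 20.9 in the DMSO list. RHAG, a red cell membrane channel gene, had 4 pairs with scores from 15.4 to 23.7 in the ponatinib list and from 17.7 to 22.4 in the DMSO list. Of 13 red cell membrane genes, 2 had a member pair (15.4%, 1.92 to 45.4). Of 13 granulocyte and monocyte genes, 4 had one (30.8%, 9.09 to 61.4), and CEBPE, a factor of granulocyte maturation, had 3, of which the pair with SLC7A8 scored 25.6 in the ponatinib list and 32.3 in the DMSO list. None of 15 megakaryocyte and platelet genes (up to 21.8%) or of 12 stem and progenitor genes (up to 26.5%) had one. Among lists of other cell types, 2 of 14 lymphoid genes (EBF1 and CD79B) and 1 of 7 liver and neuron genes (APOA1) did.

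Among other lists, 7 of 57 ribosomal protein genes, 4 of 32 cell cycle genes, 1 of 18 chromatin architecture genes (the cohesin subunit STAG1) and 1 of 19 BCL2 family and cell death genes had a member pair. BCL2, the inhibitor of apoptosis, had 3 pairs, the strongest at 304 kb with 46.7 in the ponatinib list and 36.5 in the DMSO list. RPL23A had 4 and RPS26 had 3, all promoter to promoter. None of 15 cholesterol and fatty acid synthesis genes had one, and of the ERK pathway and immediate early genes 1 of 20 did, JUN. The large tandem families were lower than the 8.45% of all genes, with 4 of 276 ZNF genes (1.45%, 0.396 to 3.67), 1 of 146 olfactory receptor genes and 0 of 86 keratin genes (up to 4.20%). Solute carrier genes, with 19 of 257 (7.39%), and clustered protocadherin genes, with 4 of 45 (8.89%), were near that share.

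**Figure D5:**
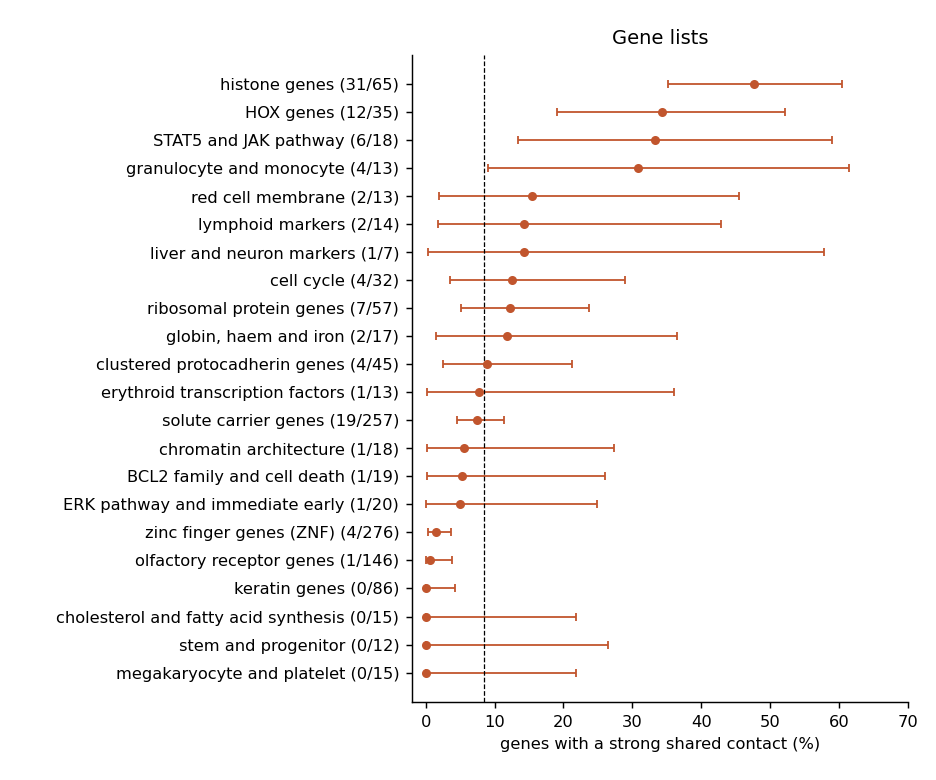
Points give the percent of each list's genes with a listed bait that had a member pair, with 95% Clopper-Pearson intervals, and the numbers of genes stand beside each name. The dashed line is the share over all 12444 genes, 8.45%. The intervals of histone, HOX, STAT5 and JAK, and granulocyte and monocyte genes lie wholly to its right. Those of ZNF, olfactory receptor and keratin genes lie wholly to its left. The intervals treat genes as independent, although genes of a list can share a fragment and its pairs, and they are no test of the lists.

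Beyond 2 Mb there were 52 members in 12 connected groups on 7 chromosomes, and 9 of them reached 10 Mb or more. The distances are those of the reference genome. K562 is known to carry rearranged chromosomes, and whether these ends lie closer in its own genome was not tested. The largest of these groups had 22 pairs on chromosome 18, 2876 to 3083 kb apart, between COLEC12, a scavenger receptor gene, or CLUL1 on 1 side and DLGAP1, the gene of a postsynaptic scaffold protein, with the sequence next to it on the other. A fragment of CLUL1 and a bait in DLGAP1 scored 88.1 in the ponatinib list and 66.5 in the DMSO list. COLEC12 had 11 of the pairs, 8 of them in a run of 26.1 kb, with scores from 15.4 to 62.0 in the ponatinib list and from 15.02 to 69.6 in the DMSO list, ranges that overlapped.

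The longest members joined ATXN1, the ataxin-1 gene, with 5 adjoining fragments in PKHD1, the fibrocystin gene, 35092 to 35111 kb away on chromosome 6. Of these, the pair with the highest scores had 57.9 in the ponatinib list and 83.9 in the DMSO list, and the next 48.6 and 72.7. Another pair went the other way, with 57.7 in the ponatinib list and 26.4 in the DMSO list. On chromosome 17, DHRS7C had 6 pairs from 4418 to 20015 kb, among them a pair with SSH2 at 20015 kb with 55.2 in the ponatinib list and 15.97 in the DMSO list. The fragment of POLR2A, the catalytic subunit of RNA polymerase II, with SLC35G6 and ZBTB4, met 4 fragments over ZZEF1 at 3427 to 3435 kb, with scores from 15.1 to 25.6 in the ponatinib list and from 18.4 to 31.9 in the DMSO list. On chromosome 16, 5 pairs joined the PDPR region with NPIPB15 and PSMD7 at 4143 to 4252 kb. Their scores ran from 17.8 to 37.5 in the ponatinib list and from 16.9 to 37.9 in the DMSO list. NPIPB15 and PDPR belong to families with near-identical copies on that chromosome, so the placing of their reads is uncertain.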

How the data were processed

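Per the labels' protocols, chromatin was cut with HindIII, ligated and captured with promoter probes, in 1 library per treatment. The authors deposited 1 interaction list per library, in which each line gives a bait, its partner and a score, the authors' own value, none below 5. Coordinates are on hg38 (submitters' processing notes). The sources used here name no aligner, caller, score definition or read depth, so scores were not normalised between libraries.

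Pairs were keyed by their unordered fragments with Python 3.11.15, pandas 2.3.3, numpy 2.4.6, scipy 1.17.1 and networkx 3.6.1. Distance runs between fragment midpoints. A protein-coding gene was placed by its start in the RefSeq promoter table (15843 of 20037 genes) and otherwise by either gene end, as was MYC. Shares have exact Clopper-Pearson intervals, their differences Newcombe intervals and medians order-statistic intervals, at 95%, and these routines were tested on simulated data. They treat pairs as independent. Named genes came from the highest-ranked, longest and shortest pairs, the genes with most pairs, the largest groups, the pairs beside the threshold, up to 4 per gene list and a list of blood and signalling genes. The rule's tie at 8 pairs was kept whole. The members and lists were chosen with earlier results of these data known. The threshold, matching, distance limit, chromosomes and gene placing were varied. No test of the treatment was possible. Some genes and pairs that the naming rule picked are not reported here.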

Additional observations from a re-analysis of the deposited data

How the results depend on the processing

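The study gives 1 list of calls per treatment and no read counts, so depth, replicate spread and the error of a single score are unknown here. No paired analysis was possible because the labels give no replicate numbers and there is 1 library per treatment. Of 75 recomputed values, 42 stayed within the main interval, or within 1.5 times a count, and 33 moved outside. A reversal of direction was looked for in the promoter-to-promoter difference alone. The difference in distance from the other shared pairs was not recomputed under these settings. The promoter-to-promoter share stayed higher in members than in the other shared pairs under every setting in which the difference was computed, by 6.80 to 18.7 percentage points. The settings with 1 pair per group, gene starts alone or weighted distances were chosen after seeing the data. The cause of the other changes was not tested, except where fewer or more pairs follow from the setting itself.

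With a score of at least 12 there were 2990 members in 988 groups, and 4.38% lay beyond 1 Mb. At 20 there were 605 in 300 groups, with 7.27% beyond 1 Mb, 40.2% promoter to promoter and a difference of 14.6 points. At 30 there were 126 in 81 groups, the largest of 5 pairs, with 10.3% beyond 1 Mb, 44.4% promoter to promoter, a difference of 18.7 points, a gene start in 75.4%, the higher score in the ponatinib list in 63.5% and a neighbour in 100%. By equal ranks in both lists, which sets a ponatinib score of 16.4 beside 15 in DMSO, 67.2% had the higher score in the ponatinib list. With chromosomes 9, 13 and 22 kept, the median was 232 kb, 14.8% lay beyond 1 Mb, 31.5% were promoter to promoter (a difference of 6.80 points), the largest group had 243 pairs, and 81.8% had a gene start. Up to 1 Mb alone, the median was 192 kb. Matching ends within 5 kb gave 33.1% promoter to promoter. A gene start at both ends, in place of baits, held for 21.4%. A start within 1 kb gave a gene share of 82.6%, and starts of the promoter table alone gave 65.9%. Neighbours within 20 kb stood beside 98.8%. With 1 pair per group, the one with the highest lower score, 45.7% were promoter to promoter, the median was 194 kb and 3.68% lay beyond 1 Mb.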

Other observations

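Strong pairs that only 1 list held lay farther apart than the shared ones. The 176 cis pairs with a ponatinib score of 15 or more and no DMSO listing had a median distance of 543 kb (451 to 593), and 36.4% were promoter to promoter. The 68 with a DMSO score of 15 or more and no ponatinib listing had a median of 457 kb (338 to 609), and 51.5% were promoter to promoter. The strongest found in the ponatinib list alone joined ANKRD29 with a fragment in PTPRM, the gene of a receptor phosphatase, 15530 kb away on chromosome 18, with a score of 44.6. The DMSO list alone held another ANKRD29 pair with PTPRM, at 15391 kb with a score of 27.2, and a member pair of the same bait stood in both lists at 15430 kb with 29.2 in the ponatinib list and 29.9 in the DMSO list. The 3 PTPRM fragments do not adjoin each other. MYC likewise had a pair of the ponatinib list alone, with a score of 32.2 at 1796 kb, beside its members.

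The member fragments held 35 microRNA genes, among them MIR3143 on the H2AC12 and H2BC12 fragment. MIR6748 lay on the TMEM179B fragment, and MIR26A2 and MIR7-2 on others.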
